A study of Drosophila melanogaster with 2 samples.

Results

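The genes described here are 10 segment polarity genes of the Wingless and Hedgehog pathways of Drosophila melanogaster: wg, hh, ci, en, inv, fz, fz2, smo, ptc and nkd. They are 10 of 13945 annotated protein-coding genes, and they were listed by name under a rule that uses no measured value. The choice was made with earlier results of these data known. Chromatin immunoprecipitation followed by sequencing (ChIP-seq) mapped Spalt major (Salm), a zinc-finger transcription factor of the embryo, in 2 biological replicates of 1 group. Both replicates were whole embryos aged 0 to 16 h from a transgenic line that stably expresses salm with a C-terminal GFP, precipitated with an antibody against GFP. No untagged or mutant group was analysed here, and the labels do not say which promoter drives the tagged copy or whether untagged salm is present beside it. Whole embryos mix all tissues and stages, so strong binding in few cells and weak binding in many cannot be told apart. The sources used here give no read totals, so the sequencing depth behind each replicate is unknown.

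In the embryonic ectoderm, cells on either side of each parasegment boundary signal to each other. Wingless (Wg), a secreted Wnt protein, binds receptors of the Frizzled family on neighbouring cells, where it maintains expression of engrailed (en). Engrailed in turn allows those cells to make Hedgehog (Hh), which binds Patched (Ptc), releases Smoothened (Smo) from inhibition and lets the zinc-finger factor Cubitus interruptus (Ci) activate targets that include wg and ptc. Naked cuticle (Nkd) is induced by Wingless signalling and restrains it, and Patched is likewise both the receptor and a target of its pathway.

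A thresholded summit is the position of highest signal in a peak of the list that the authors thresholded by irreproducible discovery rate. A place on that list did not mean a similar rank in both replicates at each site. Of its 3421 summits, 3399 lay in a peak of replicate 1, with ranks down to 23809. In a peak of replicate 2 lay 3400, with ranks down to 25261. Genes with such a summit anywhere between their end and a point 2 kb upstream of them are called bound. Thresholded summits were found at 5 of the 10 genes: ci, fz, fz2, ptc and nkd. Of the signals and their transcription factors (wg, hh, ci, en and inv), only ci, 1 of 5, held a thresholded summit. Of the receptors and feedback genes (fz, fz2, smo, ptc and nkd), 4 of 5 did, and smo was without one. Across all protein-coding genes 21.4% were bound, a share that depends on the length of the window searched. It was 16.8% for windows under 10 kb, 40.4% from 10 to 20 kb, 44.9% from 20 to 50 kb and 56.5% over 50 kb.

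The sequences of 7 summits show what the strongest sites at fz, fz2 and nkd, the strongest peak of hh and the nearest strong site of wg look like. Each is 101 bases centred on the summit, on the strand of the gene, from the RefSeq sequence of Release 6, the assembly that dm6 names. Capitals mark GAGAG, the word read by the GAGA factor, and ATATT, an A/T-rich word read by the vertebrate relative SALL4, on either strand, so that CTCTC and AATAT are marked too and AATATT is a match on both strands that overlap.
fz upstream summit, chr3L:14272552-14272652, strand plus: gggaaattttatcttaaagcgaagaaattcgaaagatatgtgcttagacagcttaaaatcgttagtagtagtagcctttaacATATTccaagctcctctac
fz second summit, intron, chr3L:14304034-14304134, strand plus: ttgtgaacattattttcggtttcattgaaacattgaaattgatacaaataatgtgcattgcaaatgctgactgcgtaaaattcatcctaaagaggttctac
fz2 strongest summit, intron, chr3L:19163009-19163109, strand minus: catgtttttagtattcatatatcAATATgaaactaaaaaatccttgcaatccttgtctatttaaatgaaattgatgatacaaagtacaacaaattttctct
nkd strongest summit, intron, chr3L:19042632-19042732, strand minus: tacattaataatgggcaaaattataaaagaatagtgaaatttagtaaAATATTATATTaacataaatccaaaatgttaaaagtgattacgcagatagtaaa
nkd promoter summit, chr3L:19045585-19045685, strand minus: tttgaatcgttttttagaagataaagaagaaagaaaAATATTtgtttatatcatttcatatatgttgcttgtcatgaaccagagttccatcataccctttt
hh summit below the threshold, intron, chr3R:23139159-23139259, strand minus: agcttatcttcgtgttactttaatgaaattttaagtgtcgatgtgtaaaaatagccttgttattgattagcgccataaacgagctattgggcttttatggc
wg summit upstream of its window, chr2L:7296023-7296123, strand plus: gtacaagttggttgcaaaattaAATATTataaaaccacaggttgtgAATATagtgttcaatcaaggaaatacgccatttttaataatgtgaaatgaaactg

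Both nkd sites were the richest in ATATT of the 6 sites shown from fz, fz2, nkd and hh, with 3 and 2 matches, and the wg site had 3. The fz intron site and the hh site had none, and no GAGAG lay in any of these 7 windows. Among the sites not shown, the fz summit 533 bp downstream of the TSS had 4 ATATT matches, more than either nkd site. The ptc summit had 2, and the nkd summits with signals of 146 and 142 had none. Over all 18 thresholded summits of the 10 genes, ATATT was found within 50 bp of the summit at 11 (61.1%), against 52.0% of the 3421 summits of the thresholded list. GAGAG was found at 2 (11.1%), against 9.85%. The 2 summits with GAGAG were that of ci and an intronic one of fz. None of the 18 held CTTTGA, the core word of Pangolin, the factor that carries Wingless signalling to its targets, which 5.76% of all summits held. The direction turned with the width searched: within 100 bp, 3 of the 18 (16.7%) held it, against 11.1% of all. Of the 3 other words searched, CAGGTA of Zelda and TATCGATA of DREF were at 0 of 18 summits, against 1.87% and 0.965% of all, and GACCACCCA of Ci was at none of the 3421. These counts describe letters in a window and not binding by any of those factors. The GC content of the 18 windows had a median of 34.7% and ran from 19.8% to 47.5%, against a median of 32.7% over all thresholded summits.

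Among the secreted signals, wg had no thresholded summit in its window (arm 2L, gene 7307159 to 7316265, plus strand, FBgn0284084). Its strongest peak in the pooled list, the authors' unthresholded list of 30000 peaks called on both replicates together, peaked 5 bp before the annotated transcription start site (TSS). That peak had a signal of 92.0 in the units of the peak caller, at rank 7133, and 65.0% of the lowest signal in the thresholded list, which is 141. In the replicate lists, also of 30000 peaks each, it had a signal of 55.2 at rank 8355 in replicate 1 and 33.4 at rank 8349 in replicate 2. Signals differ in scale between lists, so signals printed from different lists are not to be compared, and only ranks are read across them. The next peaks of wg were weaker, with signals of 54.3 and 49.5 in introns.

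The nearest thresholded summit to wg lay outside its window, 11086 bp upstream of the TSS and 9086 bp beyond the window's edge. Its peak (arm 2L, 7295992 to 7296203) had a signal of 297 and ranked 888 in the thresholded list, 760 in replicate 1 and 1278 in replicate 2. It lay between genes, and wg owned the nearest TSS, so a count by gene window leaves out a peak stronger than any of those of ci or fz2.

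For hh (arm 3R, 23128169 to 23141906, minus strand, FBgn0004644) the strongest pooled peak was in an intron, 2697 bp downstream of the TSS. Its signal of 120.4 at rank 4578 was 85.2% of the lowest thresholded signal, the closest approach among the 5 genes without a thresholded summit. It ranked 4070 in replicate 1 and 7384 in replicate 2. The nearest thresholded summit was 29599 bp outside the window, 368 bp from the TSS of Irk1, a potassium channel gene.

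The transcription factor genes differed among themselves. At ci (chromosome 4, 47710 to 57041, minus strand, FBgn0004859) the single thresholded peak, from 56156 to 56545, had its summit 20 bp upstream of the inner of 2 annotated TSSs, within the 5′ untranslated region of the longer transcript. Its signal was 193 at rank 1938, and it ranked 1679 in replicate 1 and 2302 in replicate 2. The median signal of the whole thresholded list was 206. Of all bound genes, 65.1% had a strongest peak at least as strong as that of ci.

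The homeodomain genes en (arm 2R, 11524006 to 11528210, minus strand, FBgn0000577) and inv (arm 2R, 11474465 to 11509695, plus strand, FBgn0001269) are neighbours and close relatives, and neither had a thresholded summit. The strongest pooled peak of en, 1415 bp upstream of its TSS, had a signal of 73.6 at rank 10074. The strongest peak in its window ranked 18687 in replicate 1 and 4840 in replicate 2, so its place differed widely between them. The strongest pooled peak of inv had a signal of 101 at rank 6123 and lay in an intron 24941 bp downstream of a TSS. The nearest thresholded summits were 63565 bp outside the window of en, 649 bp from a TSS of tou, and 21722 bp outside that of inv, 1300 bp from a TSS of E(Pc). The summit near tou ranked 854 in replicate 1 but 15829 in replicate 2. The summit near E(Pc) ranked 4704 in replicate 1 and 2519 in replicate 2.

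The Wingless receptor gene fz held 6 thresholded summits in a window of 96.3 kb (arm 3L, 14274343 to 14368639, plus strand, FBgn0001085), and in the pooled list the strongest peak of the 10 genes. Among the 3421 strongest peaks of replicate 1 alone it had 5 summits, against 7 for fz2 and 6 for nkd, and with summits given to the nearest TSS only it had 3, against 5 for fz2. Its strongest peak (14272481 to 14272731) lay outside genes, 1741 bp upstream of the TSS, with a signal of 493 at rank 330. This peak ranked 440 in replicate 1, with a signal of 269.9, and 234 in replicate 2, with a signal of 217. Of the bound genes, 14.5% had a peak as strong or stronger.

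The other 5 summits of fz were spread along the gene. An intronic summit 29741 bp downstream of the TSS, nearest to the TSS of lncRNA:CR45025, had a signal of 393 and ranked 551 in replicate 1 and 584 in replicate 2. Another intronic one, 92028 bp downstream and near the gene's end, reached 323 and ranked 499 in replicate 1 and 1620 in replicate 2, and the nearest TSS, 3336 bp away, was that of CG13481. The remaining 3 were weaker: 222 in an intron at 23289 bp, 172 in the 5′ untranslated region at 533 bp, and 143 in an intron at 64772 bp, where CG13482 owned the nearest TSS. Of 336 genes with windows over 50 kb, 32 (9.52%) had at least 6 thresholded summits.

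The second Wingless receptor gene, fz2 (arm 3L, 19140975 to 19235373, minus strand, FBgn0016797), has a window of nearly the same length, 96.4 kb, and held 5 thresholded summits. All 5 were intronic and weaker than the 4 strongest of fz. The strongest, 7589 bp downstream of a TSS of fz2, had a signal of 213 at rank 1617 and ranked 1702 in replicate 1 and 1643 in replicate 2. The others had signals of 181 at 1449 bp and 173 at 5328 bp downstream of the same TSS, and 163 and 147 at 10693 and 21408 bp upstream of it, where lncRNA:CR45941 owned the nearest TSS. A peak just under the threshold, with a signal of 139.9 at rank 3482, had its summit 52 bp downstream of that TSS in the 5′ untranslated region. At least 5 thresholded summits were found in 41 of the 336 genes of this length class (12.2%).

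Of the genes that receive Hedgehog, ptc had a strong peak and smo none above the threshold. At ptc (arm 2R, 8649649 to 8665223, plus strand, FBgn0003892) there was 1 thresholded summit, in an intron 4796 bp downstream of the TSS, and lncRNA:CR44281, 2949 bp away, owned the nearest TSS. Its peak (8654291 to 8654571) had a signal of 470.3 at rank 369 and ranked 263 in replicate 1, with a signal of 341, and 688 in replicate 2, with a signal of 132. Of bound genes, 16.1% had a peak as strong or stronger. The next peak of ptc had a signal of 125 at rank 4305, under the threshold. The count of 1 depends on the list and on the window. Among the 3421 strongest peaks of replicate 1 alone lay 2 summits, and 3 among those of replicate 2 alone. In the thresholded list, ptc had 2 summits from 5 kb upstream to its end, and 5 with 10 kb on both sides.

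The window of smo (arm 2L, 277582 to 282167, plus strand, FBgn0003444), the transducer that Patched inhibits, is 6.59 kb long and held 2 pooled peaks and no thresholded one. The stronger had a signal of 73.4 at rank 10120, with its summit 36 bp downstream of the TSS. This summit lay in a replicate 1 peak at rank 8189, the strongest there, and in no peak of replicate 2. The strongest replicate 2 peak, at rank 5250, held the weaker pooled summit instead, 256 bp upstream of the TSS. That weaker summit lay in no peak of replicate 1, and CG17078, 114 bp away, owned the nearest TSS. The nearest thresholded summit, at CG17075, was 7923 bp outside the window.

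The feedback gene nkd (arm 3L, 19003741 to 19045449, minus strand, FBgn0002945) had 5 thresholded summits in 43.7 kb, or 1.14 per 10 kb. Among the 3421 strongest peaks of a single replicate it had 6 in replicate 1 and 4 in replicate 2. Its pair of strong peaks flanked the start of the gene. The intronic one, 2767 bp downstream of the TSS (19042597 to 19042787), had a signal of 324 and ranked 897 in replicate 1 and 632 in replicate 2. The promoter one, 186 bp upstream (19045534 to 19045736), had a signal of 310.3 and ranked 972 in replicate 1 and 713 in replicate 2. The other 3 were close to the threshold, with signals of 147, 146 and 142, in introns 3600, 28766 and 32116 bp downstream, and SmydA-2 owned the TSS nearest to the last 2. Of 807 genes with windows of 20 to 50 kb, 22 (2.73%) had at least 5 thresholded summits.

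**Figure D1:**
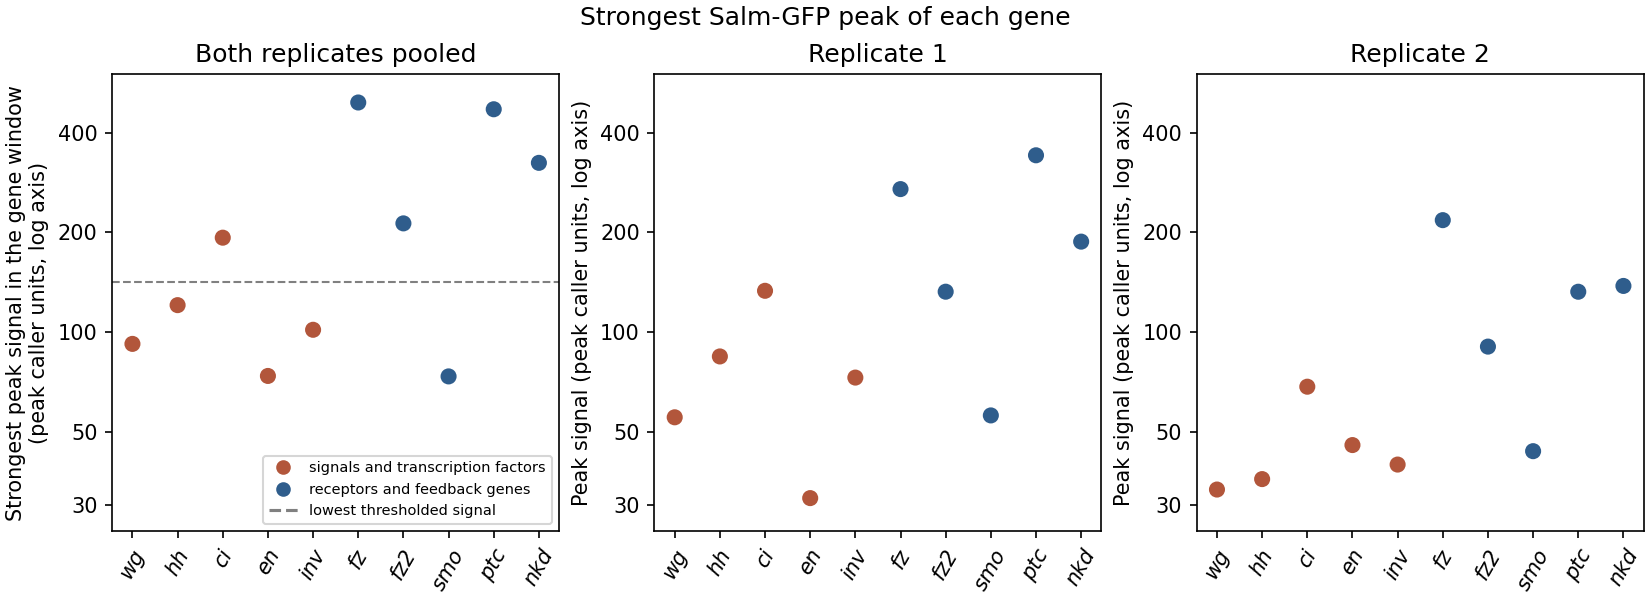
Strongest peak signal in each gene window (log axis, peak caller units) in the pooled list and in each replicate list, with signals and transcription factors in red and receptors and feedback genes in blue, and the lowest thresholded signal as a dashed line. In each panel fz, ptc, nkd, fz2 and ci are the highest 5, while wg, hh, en, inv and smo lie below them.

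The order of the strongest signals was fz, ptc, nkd, fz2, ci, hh, inv, wg, en and smo in the pooled list. The plot of strongest signals by list shows that the same 5 genes were highest in each replicate. In replicate 1 the lowest of them was fz2 at 132, and the highest of the others was hh at 84.3. In replicate 2 the lowest was ci at 68.3, and the highest of the others was en at 45.5. The pooled and thresholded lists were built from these same replicates, so this is no independent check. The strongest signals were also not adjusted for window length, which ran from 6.2 to 96.4 kb. Within each set of 5 the order changed between replicates: ptc was first in replicate 1 and fz in replicate 2, ci and fz2 changed places, and hh was sixth in replicate 1 and ninth in replicate 2. Of the neighbours in the pooled order, fz and ptc, ptc and nkd, fz2 and ci, hh and inv, wg and en, and en and smo stood in the opposite order in at least 1 replicate, so their order is not resolved by these data.

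**Figure D2:**
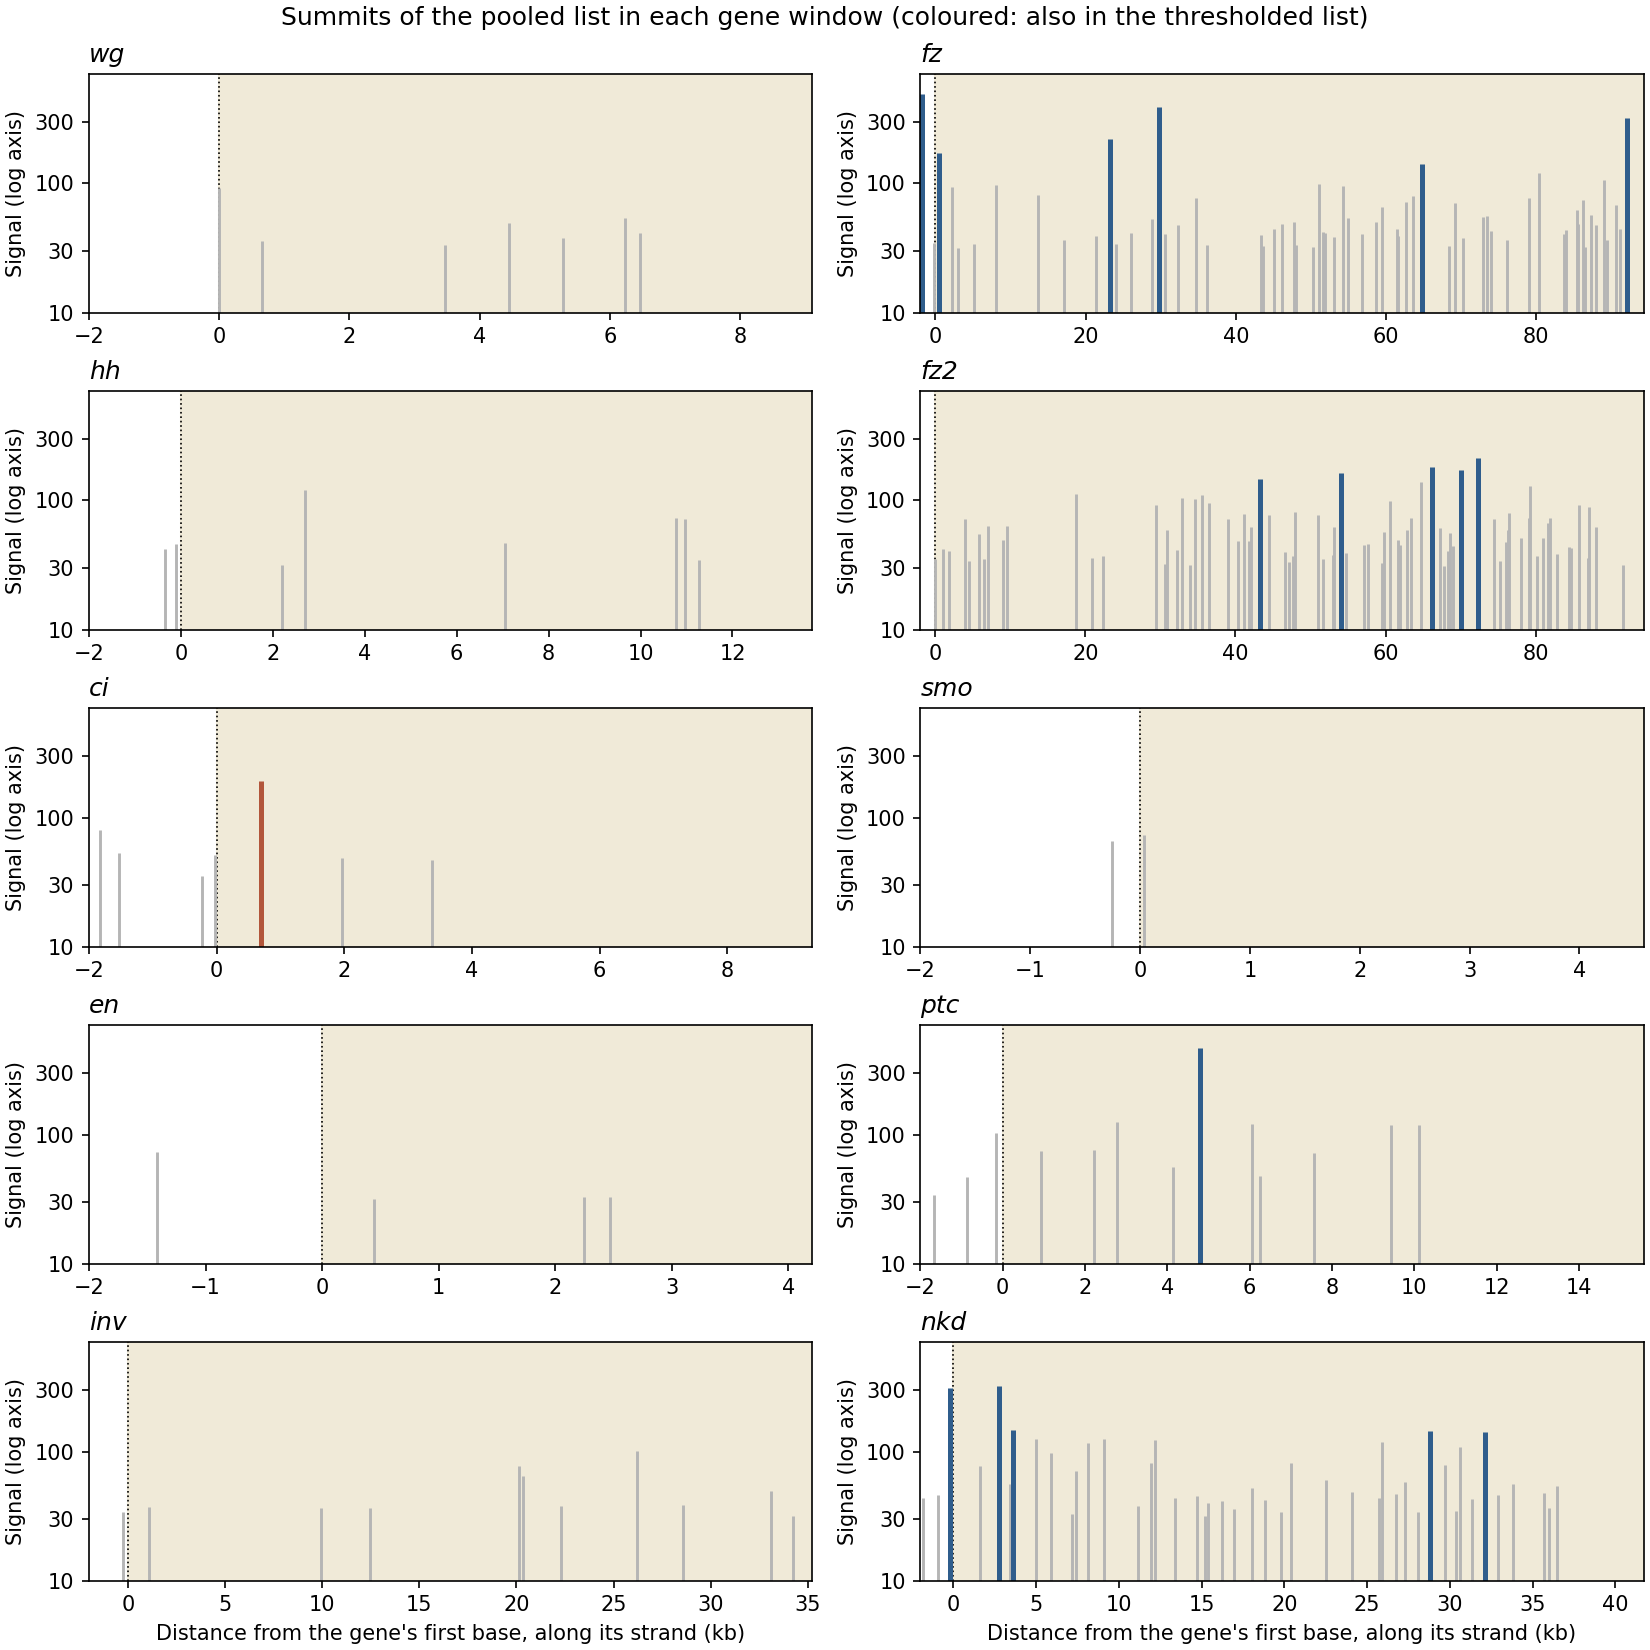
Every summit of the pooled list in each gene window, by distance from the gene's first base along its strand (kb) and signal (log axis), with the gene body shaded, the gene's start as a dotted line and thresholded summits coloured. The coloured summits of fz, fz2 and nkd are spread over their long windows, ptc and ci have 1 each, and wg, hh, en, inv and smo have grey ones only.

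All 10 genes had peaks in the unthresholded lists, as the map of summits shows, but 61.4% of all protein-coding genes had a summit in the pooled list, 61.6% in that of replicate 1 and 65.5% in that of replicate 2. The windows of wg, hh, ci, en and inv held 7, 8, 7, 4 and 11 pooled summits, against medians of 4, 4, 4, 1 and 7 for all genes in their classes of window length. Those of nkd, fz2, fz, ptc and smo held 44, 79, 62, 13 and 2, against medians of 7, 12, 12, 4 and 1. For nkd no other of the 807 genes in its class had as many. As many or more were found in 1.79% of the class of fz2, 4.46% of that of fz and 4.82% of that of ptc. Many pooled peaks overlap: merged, the 79 of fz2 form 63 regions and the 44 of nkd form 37.

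**Figure D3:**
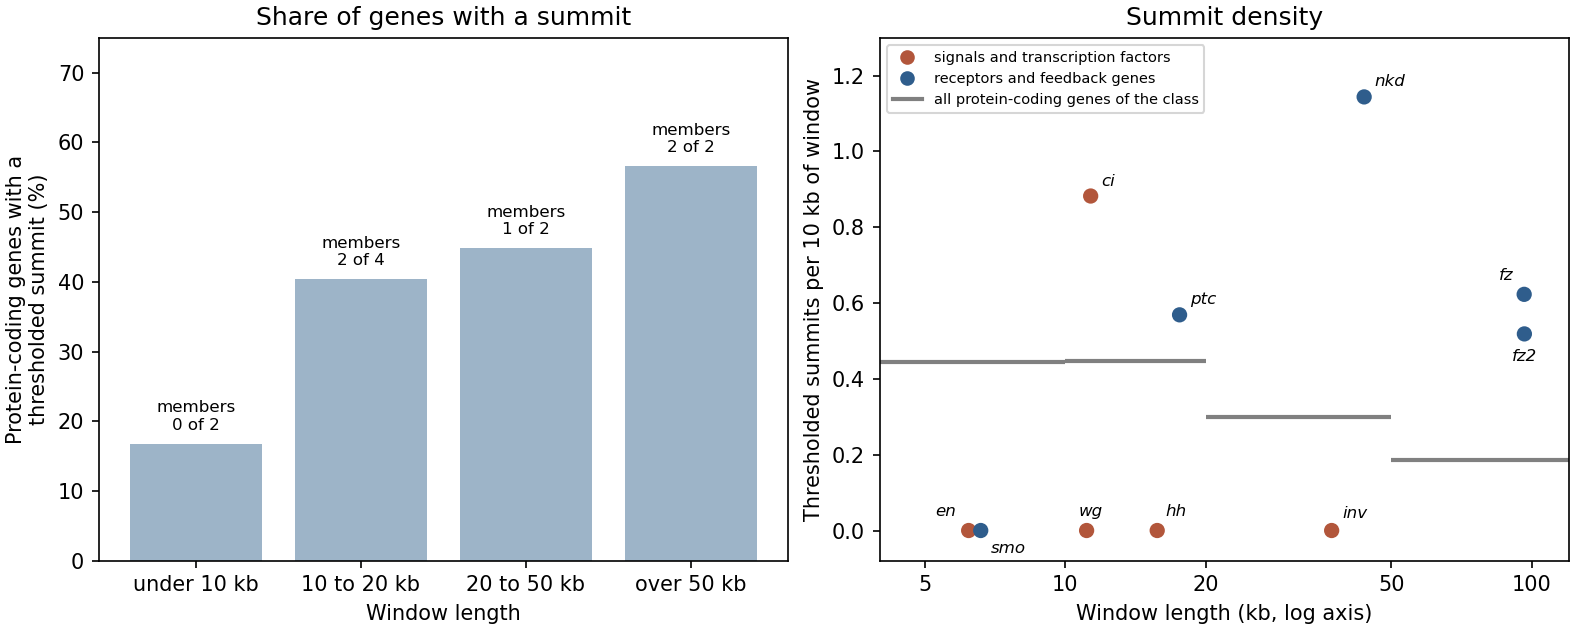
Left, bars give the share of all protein-coding genes with a thresholded summit (%) in each class of window length, with the bound count of the 10 genes above each bar. Right, thresholded summits per 10 kb against window length (kb, log axis) for each gene, with the density over all genes of the class as grey lines: ci, ptc, fz, fz2 and nkd lie above their class and the others at 0.

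The groups differ in window length as well as in role, and role and length cannot be told apart. The median window was 11.3 kb for the signals and transcription factors and 43.7 kb for the receptors and feedback genes. Within the 10 to 20 kb class, 1 of 3 signals and transcription factors (ci, not wg or hh) and 1 of 1 receptors and feedback genes (ptc) were bound, against 40.4% of all genes of that class. In the 20 to 50 kb class nkd was bound and inv was not, against 44.9% of all genes. Under 10 kb neither en nor smo was bound, against 16.8%. Adding the shares of all genes in the matching classes over the windows gives 1.83 genes for the signals and transcription factors, where 1 was bound, and 2.15 for the receptors and feedback genes, where 4 were bound. For the 10 genes together the sum is 3.98, and 5 were bound.

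Per length, the signals and transcription factors had 1 thresholded summit in 81.6 kb, or 0.123 per 10 kb. The receptors and feedback genes had 17 in 260.6 kb, or 0.652 per 10 kb. Together the 10 genes had 0.526 per 10 kb, against 0.348 over the windows of all protein-coding genes. The plot of density against window length shows the 5 bound genes each above the density of their class: 0.882 for ci and 0.569 for ptc against 0.447, 1.14 for nkd against 0.301, and 0.623 for fz and 0.519 for fz2 against 0.186. A bound window has at least 1 summit by definition, so for ci and ptc, with a single summit each, this says no more than that they were bound. In the pooled list the densities were 4.53 per 10 kb for the signals and transcription factors, 7.68 for the receptors and feedback genes and 2.65 for all genes. By class, all genes had 2.79 under 10 kb, 3.32 from 10 to 20 kb, 2.91 from 20 to 50 kb and 1.89 over 50 kb. The pooled densities of inv, 2.95, and smo, 3.04, were near those of their classes. Those of the other members ran from 5.08 for hh to 10.1 for nkd. No test was made between groups, since genes are not replicates.

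Most of the 18 summits were far from promoters. Only the summits of ci and the promoter summit of nkd, 2 of 18 (11.1%), lay within 500 bp of any TSS, against 1605 of 3421 (46.9%) in the whole list. More than 2 kb from any TSS were 13 (72.2%), against 29.9%, and 14 (77.8%) were intronic, against 51.5%. The long introns of fz, fz2 and nkd, which hold 13 of the 14, move with this difference, and their part in it was not tested. The median signal of the 18 was 187, against 206 for the whole list. With a window of 2 kb on both sides of any TSS of the gene, 1 of 5 signals and transcription factors (ci) and 3 of 5 receptors and feedback genes (fz, fz2 and nkd) were bound, against 20.5% of all genes, and ptc was no longer among them.

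**Figure D4:**
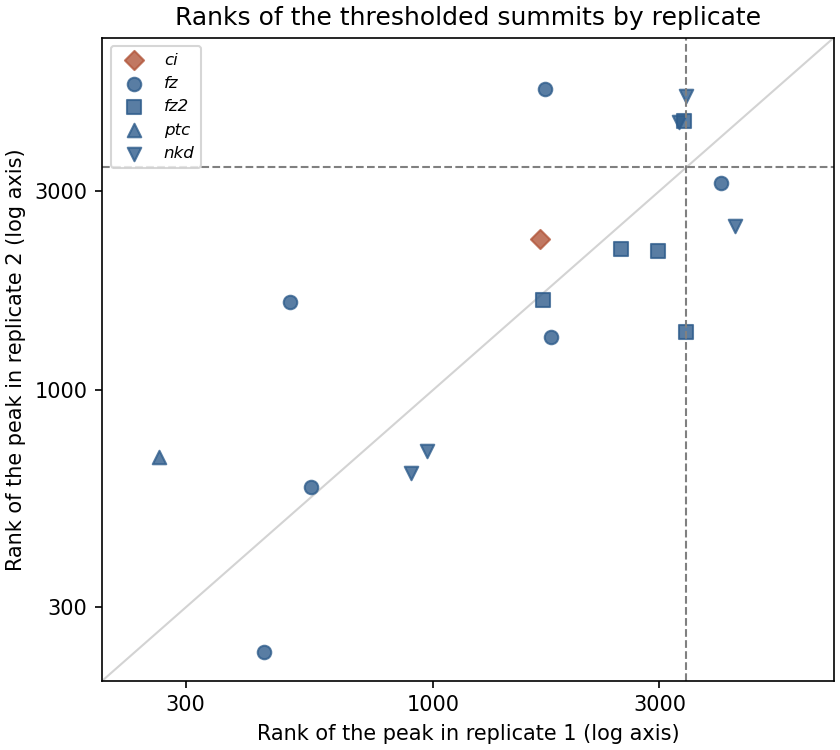
Rank in replicate 2 against rank in replicate 1 (log axes, low ranks are strong peaks) of the replicate peaks that hold each of the 18 thresholded summits, by gene, with dashed lines at rank 3421. The summits of fz, ptc and nkd with signals of 310.3 or more rank 972 or better in both replicates, except the fz summit at 1620 in replicate 2, and 6 of the 18 summits lie beyond a dashed line.

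Each of the 18 summits lay inside a peak of each replicate, with ranks from 263 to 4338 in replicate 1 and from 234 to 5278 in replicate 2. In the plot of ranks by replicate, 12 of them (66.7%) were among the 3421 strongest peaks of both, against 72.6% of all thresholded summits. The thresholded list was built from these same replicates, so this is no independent check. Those that fell short in a replicate were the fz summits at 533 and 64772 bp, the fz2 summit 21408 bp upstream, and the nkd summits at 3600, 28766 and 32116 bp. The summit positions moved between the pooled list and a replicate by a median of 7.5 bp in replicate 1 and 8.5 bp in replicate 2. From the 3421 strongest peaks of 1 replicate alone, the same 5 genes were bound either way, against 21.2% of all genes in replicate 1 and 21.3% in replicate 2.

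Further lists, none of which includes the 10 genes, held other genes of both pathways and other segment polarity genes, and 22 of their 46 genes were bound. Of 26 other Wingless pathway genes 15 were bound (57.7%), against 21.4% of all genes, and the shares of their length classes add to 8.73 genes. The strongest peak, at sgg, which encodes the kinase that marks Armadillo for destruction, had a signal of 710 at rank 143, 182 bp upstream of a TSS. The corepressor gene gro reached 402, 144 bp upstream of a TSS, and the glypican gene dlp reached 360.4 in an intron and had 6 thresholded summits. The peak of Apc, which encodes a scaffold of the destruction complex, reached 226, 82 bp downstream of its TSS. No thresholded summit was found at pan, which encodes Pangolin, or at Wnt4. In some windows of this list, that of dlp among them, the strongest peak lay nearest to the TSS of another gene. With the gene alone searched and nothing upstream, 11 of the 26 genes were bound, against 10.2% of all genes. With summits given to the nearest TSS only, 13 were bound, against 14.2%.

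Of 12 other Hedgehog pathway genes 6 were bound (50%), and the shares of their length classes add to 3.80. Several of these peaks belong as much to a neighbour. The strongest, 1672 at rank 13 in the window of Gprk2, a kinase gene acting on Smoothened, lay 578 bp upstream of Gprk2 but 73 bp from the TSS of PNPase. The peak of ihog, a Hedgehog co-receptor gene, with a signal of 222, lay 72 bp from the TSS of SA1. That of slmb, an F-box gene needed for processing of Ci, with a signal of 190.3, lay 85 bp from the TSS of CG5793. In contrast rdx, whose product targets Ci for degradation, had 8 thresholded summits, the strongest an intronic one of 399 whose nearest TSS was its own. With the gene alone searched and nothing upstream, 2 of these 12 genes were bound, against 10.2% of all genes under that setting. The genes shf and disp, for Hedgehog spread and release, had no thresholded summit.

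Of 8 other segment polarity genes, all encoding transcription factors apart from lin, a transcriptional regulator, 1 was bound (12.5%), and the shares of their length classes add to 2.05. It was the T-box gene H15, with a signal of 216, 536 bp upstream of its TSS. The genes gsb-n, a Pax gene, and tsh, a zinc-finger gene, had none, although tsh held 1 summit among the 3421 strongest peaks of replicate 2.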

How the data were processed

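ChIP-seq peak lists of 2 biological replicates of 1 group were used. Peaks were called by the authors for each replicate and for both pooled, against a control that was not analysed here, on dm6, and a thresholded list was kept by irreproducible discovery rate, per the deposited descriptions. Neither the software (aligner, peak caller) nor the rate threshold is named in the sources used here. Signal, as deposited, is the strength value of the peak caller, and the deposited −log10 q-value has a ceiling of 4.08 that all thresholded peaks reach, so it ranked nothing. Chromatin was sonicated to 200 to 800 bp per the labels.

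Gene, transcript and exon positions came from Ensembl release 115 (FlyBase 6.54), and sequence from RefSeq Release 6. All 10 gene coordinates were the same in the RefSeq table. Summits (start plus offset) were counted from 2 kb upstream of each gene to its end, for every gene whose window held them. The genes named are the 10, the owner of the TSS nearest to each of their thresholded summits and, per list, at most 4 bound genes, by peak strength, and at most 2 unbound ones, by window length. The owners of the TSSs nearest to other peaks were named after their values were seen. The 10 genes, the lists and the motifs were chosen with earlier results of these data known. The counting was tested on simulated data. Alternatives to the counts numbered 9, beside a wider sequence window, and 1 more, a window of 2 kb around each TSS, was chosen after seeing the data. Python 3.11.15, numpy 2.4.6, pandas 2.3.3 and matplotlib 3.10.9 were used.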

Additional observations from a re-analysis of the deposited data

How the results depend on the processing

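With 1 group of 2 replicates, no comparison of conditions was made, and gene windows miss distal sites, as at wg. No paired analysis was possible because the study has 1 group. With all pooled peaks, 10 of the 10 genes, 5 of 5 signals and transcription factors, 237 summits and 61.4% of protein-coding genes were counted as bound. With the strongest 1710 thresholded peaks, ci was lost, leaving 0 of the signals and transcription factors, 8 summits and 12.5% of genes. With the gene alone, 5 of the 10 genes were bound, against a background of 10.2%. From 5 kb upstream to the gene end, 5 were bound, against 28.2%. With 10 kb on both sides, where smo was added, 6 of the 10 were bound, against 52.1% of all genes. With summits given to the nearest TSS only, 5 were bound, against 14.2%. The window of 2 kb around each TSS, chosen after seeing the data, left 5 summits. With 1 replicate left out, 5 genes were bound each time (1 signal or transcription factor and 4 receptors and feedback genes), with 18 to 21 summits and a background of 21.2% to 21.3%. Within 100 bp of the summits, GAGAG was found at 33.3% of the 18 summits, against 23.3% of all, and CTTTGA at 16.7%, against 11.1%.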
